A study of Mus musculus with 24 samples.

Results

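The genes described here are the mouse semaphorins, plexins, ephrins and Eph receptors, which are ligands and receptors of cell-to-cell guidance signals. They were taken by symbol from 2 tables of RNA-seq values, as every gene whose name starts with Sema3 to Sema7, Plxna to Plxnd, Efna, Efnb, Epha or Ephb. This gave 51 genes of 49568 in each table, namely 20 semaphorins, 9 plexins, 8 ephrins and 14 Eph receptors. Within these families no gene was picked by its expression, but the choice was made with earlier results of these data known. The study asked how the mesenchyme around the bile duct acts on ductal cells (DCs), the epithelium of the bile ducts. In the homeostasis experiment, 4 fractions were sorted from the livers of 3 littermates (mice A, E and F, 12 weeks old, healthy, heterozygous for the Pdgfra-H2B-GFP reporter on a C57BL/6 background), which gave 12 samples. These were EpCAM+ DCs, PDGFRα+SCA1+ cells, PDGFRα+SCA1- cells and PDGFRα-SCA1+ cells, and the gates of every fraction left out cells with CD31, CD45 or CD11b, which mark endothelium and blood cells. PDGFRα was read from the nuclear GFP of the reporter, and SCA1 is the surface protein made from Ly6a. In the transwell experiment, wild-type C57BL/6 mice of 8 to 12 weeks gave 12 samples in 6 groups of 2. DCs were taken fresh (day 0), after 15 days as organoids in a medium rich in growth factors (EM organoids), or after 15 days as organoids that shared a poorer medium with SCA1+ mesenchymal cells (SCA1+Msc) across a membrane that cells cannot cross (co-cultured organoids). SCA1+Msc were taken fresh (day 0), after culture alone and after co-culture, both also at day 15. In this experiment SCA1+Msc were sorted by SCA1 and the absence of CD45, CD11b and CD31 without a gate on PDGFRα. They were pooled from littermates. Per the paper, the cultured DCs came from 2 other littermates. For co-culture SCA1+Msc were grown for a week before freshly sorted DCs were added for 15 days. Co-cultured SCA1+Msc thus had more time in culture than the organoids. Per the paper, DCs kept alone in the poorer medium grew very little and were not able to be sequenced. An effect of the medium and an effect of the SCA1+Msc on the organoids therefore cannot be told apart.

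Semaphorins are signals read by plexin receptors. Class 3 semaphorins are secreted and mostly need the co-receptors Nrp1 or Nrp2 (neuropilins), whereas the other vertebrate classes are held in the membrane, Sema7a by a lipid anchor. Ephrins and Eph receptors are both bound to the cell surface and signal on contact, usually between neighbouring cells and in both directions. A ephrins have a lipid anchor and mainly bind EphA receptors, B ephrins cross the membrane and mainly bind EphB receptors, and most Eph receptors are tyrosine kinases. These families are best known for guiding axons and vessels, and they also set the borders and adhesion of epithelia.

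Depth, as recovered from low values, ranged from 19.6 to 25.7 M reads for the sorted fractions and from 19.3 to 28.1 M reads for the transwell samples. Levels of the homeostasis experiment are the deposited values, which are scaled per exon length and by column totals, and levels of the transwell experiment are TPM, in which length-scaled values of every sample have the same sum. Each deposited homeostasis value is 0.722 to 1.386 times its TPM, as the authors' table reused the totals of other samples. Differences are given on the scale log2(level + 1), which understates the change of low genes, with the standard error (SE) and a p from limma adjusted by Benjamini-Hochberg over all genes tested, with a threshold of 0.05. The marker lists matched the labels of the DCs and of the PDGFRα+ fractions. The summed ductal list (6 genes, among them Epcam, Krt19 and Spp1) was 56366 to 76143 in DCs and at most 374 in the PDGFRα+ fractions, and the summed mesenchymal list (6 genes, among them Pdgfra and Col1a1) was 28547 to 51010 in the PDGFRα+ fractions. The PDGFRα-SCA1+ fraction, although sorted without CD31, held all 6 of 6 endothelial markers (Pecam1, Cdh5, Kdr, Tek, Stab2 and Emcn) at a sum of 2754 to 3004, against at most 25 in the other fractions, while its mesenchymal sum was 282 to 466. Its ductal sum ran from 79.5 to 3779, with the highest value in mouse E. The hepatocyte list (5 genes, among them Alb) summed to 5842 to 6967 in DCs, 2036 to 6531 in PDGFRα-SCA1+ cells, 217 to 1683 in PDGFRα+SCA1+ cells and 446 to 1002 in the PDGFRα+SCA1- fraction, and the erythroid list to 2662 to 6258 in PDGFRα-SCA1+ cells and 389 to 1346 in DCs. All levels are averages over sorted cells, so that fewer cells of a type and less RNA per cell cannot be told apart.

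A filter on low values (at least 1 in at least 3 sorted or 2 transwell samples) left 42 of the 51 genes in the sorted fractions and 45 in the transwell groups. Epha6, Epha8 and Epha10 were listed at 0 in all samples of both experiments, Epha5 did not go above 0.0267, and Sema5b and Plxnb3 stayed at or below 5.27. Efna3, Sema4f and Ephb1 were tested in the transwell experiment only, and were at most 3.22 in the sorted fractions. Sema3e and Sema4g reached 1 in fewer than 3 sorted samples outside DCs, and Ephb2 in fewer than 3 outside PDGFRα+SCA1+ cells. Without those fractions they would have failed the filter, so their calls against them carry no support. The counts of homeostasis calls below include them. Of the genes tested, Efna2, Efnb3, Epha1, Plxna1, Sema3a, Sema4d and Sema6c were called in none of the 5 homeostasis comparisons, and Efna2 ranged widest among them, from 0 to 35. Efna2, Epha7 and Sema4f were called in none of the transwell comparisons. Exons of 13 genes overlap those of another gene, most of all Efna3 (14.1% of its exon length, with Gm15998), Plxna1 (10.7%, with Gm26811), Efna4 (10.5%, with 4731419I09Rik), Sema4c (7.3%, with D430040D24Rik) and Epha1 (6.0%, with Zyx), and reads there cannot be told apart without strand.

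The sequences below show the start of 3 receptor genes that were high in the endothelial marker-bearing PDGFRα-SCA1+ fraction. They were taken from 8 genes called higher there than in both DCs and PDGFRα+SCA1+ cells, as the 3 with the highest level among those with a single RefSeq start and no annotated exon in the window. The 8 include Sema3g and Sema7a, which passed the filter on low values through this fraction alone, so that their calls carry no support. Neither is shown. Each sequence is the 250 bases before the RefSeq transcription start (build GRCm38.p6), written 5′ to 3′ on the strand of the gene. Capitals mark the GC box GGGCGG or its reverse complement CCGCCC, a motif of promoters without TATA box.
Ephb4: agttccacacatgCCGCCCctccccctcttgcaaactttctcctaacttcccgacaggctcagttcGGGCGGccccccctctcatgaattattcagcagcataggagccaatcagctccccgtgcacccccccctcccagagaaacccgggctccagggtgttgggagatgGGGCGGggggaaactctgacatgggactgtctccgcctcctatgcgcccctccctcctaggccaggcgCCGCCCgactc
Plxnd1: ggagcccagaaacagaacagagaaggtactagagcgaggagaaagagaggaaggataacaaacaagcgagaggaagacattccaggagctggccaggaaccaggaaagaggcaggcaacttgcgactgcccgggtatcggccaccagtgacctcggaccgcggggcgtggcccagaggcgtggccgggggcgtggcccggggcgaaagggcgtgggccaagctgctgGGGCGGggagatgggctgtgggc
Plxnc1: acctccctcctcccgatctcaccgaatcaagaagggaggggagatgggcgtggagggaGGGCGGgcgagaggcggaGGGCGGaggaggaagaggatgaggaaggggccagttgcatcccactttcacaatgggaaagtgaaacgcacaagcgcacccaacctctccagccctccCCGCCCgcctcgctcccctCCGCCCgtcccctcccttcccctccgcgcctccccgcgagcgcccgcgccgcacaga
The Ephb4 window lies at chr5:137349859-137350108 on the plus strand, has 64.0% G and C and holds 4 GC boxes. The Plxnd1 window lies at chr6:115995006-115995255 on the minus strand, has 64.8% G and C and holds 1 GC box. The Plxnc1 window lies at chr10:94944846-94945095 on the minus strand, has 68.8% G and C and holds 4. RefSeq starts were matched for 45 of the 51 genes, with 59 windows, and 74.6% of these hold at least 1 GC box, against 32.7% of all 32851 windows of the same length. The sequence TATAAA or its reverse complement TTTATA stands in 1.69% of the windows of these genes, that of Efnb2, and in 12.4% of all windows. These are matches of letters and say nothing about binding.

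The leading genes were first listed for each fraction. In DCs the highest mean levels were those of the receptor Epha2 (525), its ligand Efna1 (305) and Plxnb2 (174), and 31 of the 51 genes reached 1 in all 3 mice. In the PDGFRα-SCA1+ fraction the highest were Efna1 (449), Efnb1 (303) and Ephb4 (206), with 24 genes at 1 or more in every mouse. PDGFRα+SCA1+ cells were led by Epha3 (122), Plxna4 (112) and Sema4c (105), with 34 such genes, and PDGFRα+SCA1- cells by Epha2 (145), Sema6d (84.3) and Sema4c (82), with 28. The 5 A ephrins, of which Efna1 was the highest in both fractions, summed to 306 to 340 in DCs and to 414 to 509 without PDGFRα. The sums were 53.3 to 65.2 in the PDGFRα+SCA1- and 58.9 to 71.4 in the PDGFRα+SCA1+ fraction. The summed C and D plexins were 185 to 281 in PDGFRα-SCA1+ cells and at most 36.9 in the other fractions.

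**Figure D1:**
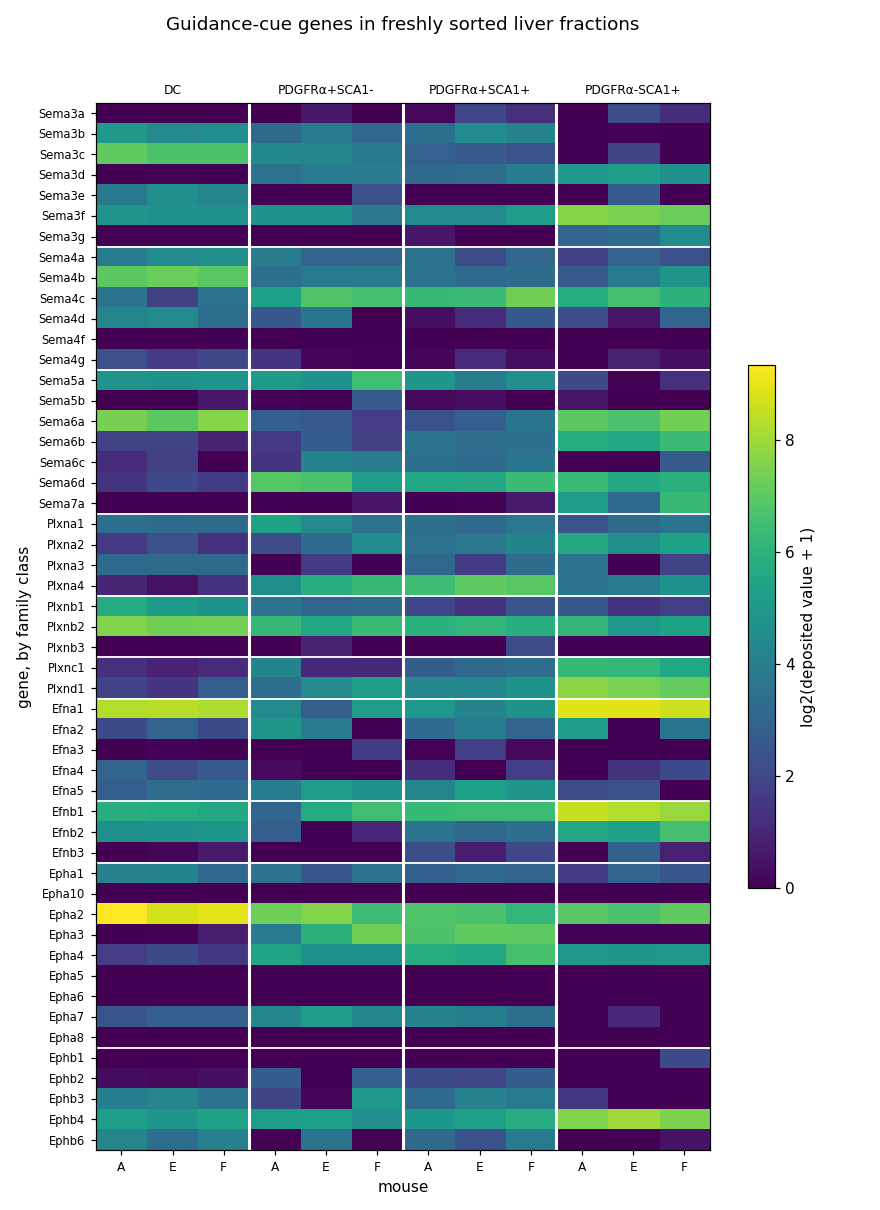
Heat map of the 51 genes (rows, by class) in the 12 samples of the homeostasis experiment (columns, 3 mice per fraction), with color for log2(deposited value + 1). Efna1 is bright in the DC and PDGFRα-SCA1+ columns (means of 305 and 449) and dimmer in the PDGFRα+ columns. Epha3 and Plxna4 are bright in the PDGFRα+SCA1+ columns and uneven in the PDGFRα+SCA1- columns, where mouse A has 13 and 24.2 beside 20.8 for Efna1.

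The first comparison asked how PDGFRα+SCA1+ mesenchyme, the cells that lie next to the duct, differs from DCs. PDGFRα+SCA1+ cells carried more Epha3, Plxna4, Epha4, Sema6d, Sema4c and Sema3d, and DCs carried more Sema6a, Sema3c, Sema3e, Sema4b, Efna1, Epha2, Plxnb1 and Plxnb2. Of 42 genes tested, 9 were higher in PDGFRα+SCA1+ cells (background 9.85% of 17028 genes) and 8 were lower (background 14%), while 25 did not pass the test. The genes higher made up 21.4% and those lower 19% of those tested, and the median difference of all 42 was 0.13 against -0.28 over all genes. Part of that -0.28 came from the reused totals. With the reuse undone, the median over all genes was -0.12, with 1974 of all genes higher and 2082 lower. In that fit 10 genes of the set were higher and 8 lower. In a fit of these fractions alone the count was 27 in place of 17, while over all genes 2446 were higher and 4216 lower, in place of 1678 and 2376. The hepatocyte list, given above, was also higher in DCs than in this mesenchyme, and its part was not tested.

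Among the receptors, Epha3 was at 105, 133 and 128 in the PDGFRα+SCA1+ samples (in the order of mice A, E and F, here and in what follows) and at 0, 0.0489 and 0.665 in DCs. The fractions did not overlap, and the difference was 6.67 ± 0.72 (adjusted p = 2.7e-05). Plxna4, a receptor for class 3 semaphorins with neuropilins and for class 6 semaphorins, was at 86.6, 130 and 120 in PDGFRα+SCA1+ cells and at 0.992, 0.345 and 1.59 in DCs (5.87 ± 0.49, adjusted p = 3.7e-06). Epha4, an EphA receptor that also binds B ephrins, was at 54.6, 45.9 and 98.7 against 2.25, 3.19 and 1.88 (4.23 ± 0.39, adjusted p = 7.1e-06). All 3 receptors stayed at or below 3.19 in DCs and above 45 in every sample of this mesenchyme. Epha2, the receptor with the highest level in DCs, was at 648, 426 and 499 there and at 107, 101 and 72.2 in PDGFRα+SCA1+ cells (-2.47 ± 0.31, adjusted p = 8.4e-05). Both B plexins tested were lower in PDGFRα+SCA1+ cells. Plxnb2, a receptor for class 4 semaphorins, was at 191, 164 and 166 in DCs and at 61.8, 68.5 and 58 in the mesenchyme (-1.46 ± 0.31, adjusted p = 0.00477), and Plxnb1, the receptor for Sema4d, had means of 37 and 3.02 (-3.25 ± 0.52, adjusted p = 6.2e-04).

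Among the ligands, Sema6a, a membrane-bound signal for A plexins, was at 173, 125 and 199 in DCs against 4.13, 5.98 and 11.3 (-4.43 ± 0.42, adjusted p = 1e-05). Sema3e, the secreted ligand of Plxnd1, was at 12.7, 23 and 17.9 in DCs and was listed at 0 in PDGFRα+SCA1+ cells of all 3 mice. Outside DCs it reached 1 only at 3.84 (PDGFRα+SCA1- cells, mouse F) and 5.48 (PDGFRα-SCA1+ cells, mouse E). It thus passed the filter on low values through its DC samples. Its call, which the count of lower genes includes, carries no support. Sema3c, a secreted semaphorin, was at 133, 105 and 104 against 6.58, 5.26 and 4.3 (-4.18 ± 0.54, adjusted p = 1.1e-04). Sema6a and Sema3c were high in DCs of every mouse, with no overlap. Sema4b, which had the highest mean of the class 4 semaphorins, was at 126, 150 and 123 in DCs and at 10.1, 8.05 and 8.96 in PDGFRα+SCA1+ cells (-3.74 ± 0.48, adjusted p = 1.0e-04). Efna1, the main ligand of Epha2, was at 305, 320 and 289 against 30.6, 17.5 and 26.8 (-3.59 ± 0.46, adjusted p = 1.1e-04). On the mesenchymal side, Sema6d had means of 58.9 and 2.34 (4.14 ± 0.45), Sema4c 105 and 7.99 (3.68 ± 0.55) and Sema3d 10.7 and 0.0185 (3.49 ± 0.44), the last with at most 2 reads per DC sample.

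PDGFRα+SCA1- cells, the mesenchyme without SCA1, were compared with DCs in the same way, with 8 genes higher (background 9.98%) and 12 lower (background 18.9%) of 42 tested. This comparison shares its DC samples with the one above, so the values are given side by side and the overlap is not read as a result. Epha3 was at 13, 63.4 and 158 in these cells (5.44 ± 0.72, adjusted p = 1.3e-04) and Plxna4 at 24.2, 56.5 and 75.3 (4.65 ± 0.49, adjusted p = 2.2e-05). Mouse A had the lowest value of both. Sema6d, a membrane-bound ligand of A plexins, was at 117, 99.7 and 35.8, against 1.68, 3.17 and 2.18 in DCs (4.53 ± 0.45, adjusted p = 1.3e-05). Sema6a stood at 6.04, 5.27 and 2.28 (-4.96 ± 0.42, adjusted p = 4.1e-06), Efna1 at 20.8, 6.19 and 34.5 (-4.11 ± 0.46, adjusted p = 3.6e-05). Efnb2, a B ephrin known from arteries, was at 6.11, 0 and 1.07 against 24.8, 25.7 and 29.7 in DCs (-3.50 ± 0.63, adjusted p = 0.00127). Without the sample of mouse A, 21 genes were called in place of 20, with 10 higher and 11 lower. Ephb6 lost its call when the mouse was a block in the fit, which sets each fraction against the others of its own mouse (adjusted p = 0.0576).

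The PDGFRα-SCA1+ fraction was compared with DCs next, and had the most calls of the homeostasis comparisons. Of 42 genes tested 14 were higher (background 11.5%) and 13 lower (background 11.3%), which is 33.3% and 31% of them. The higher genes were the plexins Plxnd1, Plxnc1, Plxna2 and Plxna4, the Eph receptors Ephb4 and Epha4, the ephrin Efnb1 and the semaphorins Sema3d, Sema3f, Sema3g, Sema4c, Sema6b, Sema6d and Sema7a. Sema3g and Sema7a passed the filter on low values through this fraction alone, so that their calls carry no support, and without them 12 of 40 genes were higher and 13 lower. The 13 lower still include Sema3e and Sema4g, which passed the filter through the DC samples, and whose calls carry no support either. The endothelial and erythroid lists were also higher in this fraction, and their part in these differences was not tested. Plxnd1, the receptor of Sema3e, was at 207, 176 and 138 there and at 2.75, 1.75 and 6.01 in DCs (5.37 ± 0.49, adjusted p = 8.2e-06). Sema3d, a secreted semaphorin, was at 30.6, 36.5 and 24.6 against at most 0.0368 (4.94 ± 0.44, adjusted p = 6.4e-06). Sema7a was at 35.4, 8.7 and 76.5 and listed at 0 in DCs of every mouse, with mouse E the lowest, and is given here as a description with no test. Plxnc1, its receptor, was at 73.3, 71.5 and 47 against 1.41, 0.88 and 1.24 (4.88 ± 0.75, adjusted p = 4.3e-04).

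**Figure D2:**
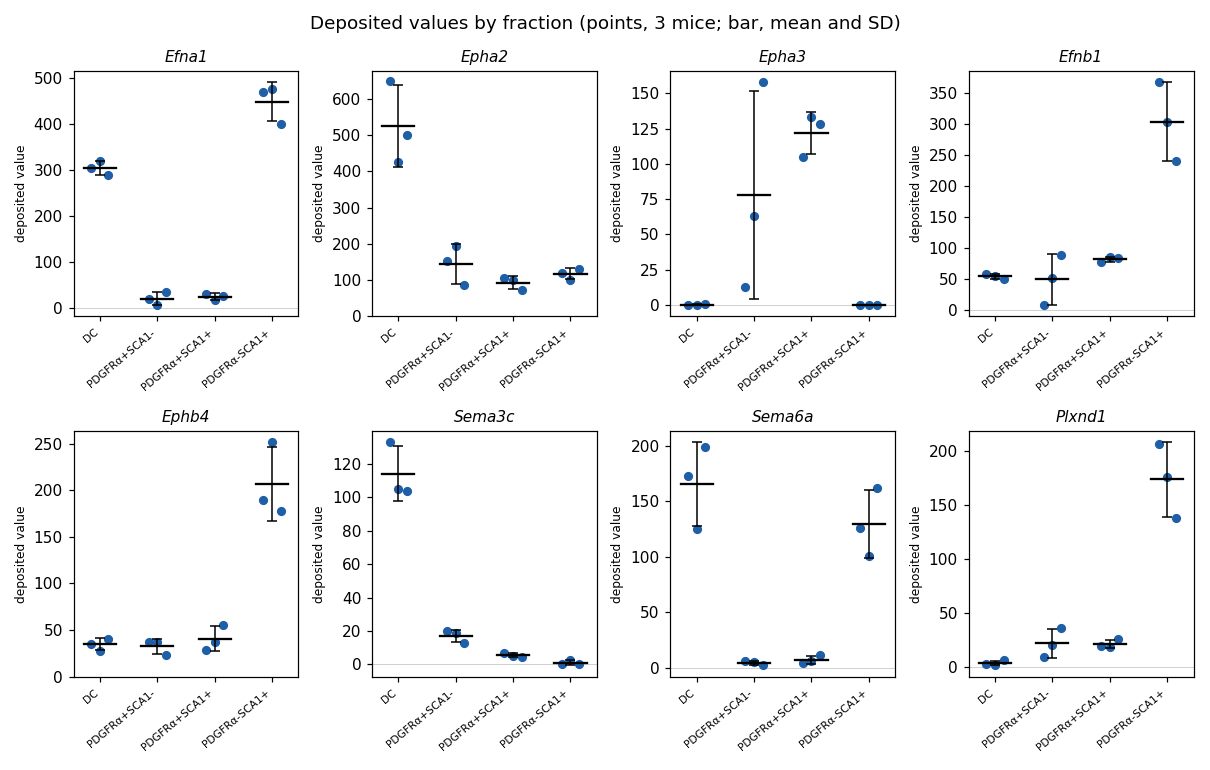
Deposited values (linear axis) of 8 genes in the 4 fractions of the homeostasis experiment, with a point per mouse, a bar at the mean of 3 and whiskers of 1 SD. Plxnd1, Ephb4 and Efnb1 separate the PDGFRα-SCA1+ fraction, Sema3c and Epha2 separate DCs, and Epha3 spreads from 13 to 158 in PDGFRα+SCA1- cells.

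Ephrins and Eph receptors of the B class and class 3 semaphorins also differed from DCs in this fraction. Efnb1, the highest B ephrin, was at 368, 303 and 240 against 57.4, 54.7 and 49.2 (2.46 ± 0.65, adjusted p = 0.0152). Ephb4, the receptor paired with Efnb2 in vessels, was at 189, 252 and 178 against 35.5, 27.9 and 40.8 (2.53 ± 0.32, adjusted p = 9.6e-05). Sema3f, the highest class 3 semaphorin of the sorted fractions and a ligand for Nrp2, was at 198, 174 and 152 against 28.3, 26.8 and 25.3 (2.65 ± 0.35, adjusted p = 1.5e-04). All 3 lay above every DC sample. In the other direction Sema3c was at 0, 2.88 and 0.0221 (-6.18 ± 0.54, adjusted p = 5.6e-06) and Sema3b, also secreted, at 0, 0.038 and 0 against 31, 20.3 and 22.9 in DCs (adjusted p = 1.9e-05). Ephb6, an Eph receptor without kinase activity, was at 0, 0 and 0.367 against 18, 9.2 and 15.8 (-3.74 ± 0.87, adjusted p = 0.00746). Sema4g lost its call with the mouse as a block (adjusted p = 0.0705). Efna1 and Sema6a, high in DCs, did not pass the test here. Efna1 was at 470, 476 and 399 (0.55 ± 0.46, adjusted p = 0.458) and Sema6a at 126, 101 and 162 (-0.35 ± 0.42, adjusted p = 0.626).

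Within the SCA1+ stroma, cells without PDGFRα were compared with cells that have it. Here 11 of 42 genes were higher (background 10.9%) and 10 lower (background 7.86%) in the PDGFRα-SCA1+ fraction. The median difference was -0.09 over the genes tested and 0.25 over all genes. Without Sema3g and Sema7a, which entered the test through the PDGFRα-SCA1+ samples alone, 9 of 40 were higher and 10 lower. Among these 40, Efna1 (4.15 ± 0.46, adjusted p = 5.6e-05) and Sema6a (4.07 ± 0.42, adjusted p = 3.2e-05) had the largest positive differences. The 10 lower include Ephb2, which passed the filter through the PDGFRα+SCA1+ samples, so that its call carries no support. Sema7a was listed at 0, 0.0516 and 0.606 in PDGFRα+SCA1+ cells. Epha3 was at 0.0541, 0.0489 and 0.0713 in PDGFRα-SCA1+ cells, which is 3 to 5 reads (-6.85 ± 0.72, adjusted p = 3.6e-05). Sema3b was at 9.36, 21.5 and 17.1 in PDGFRα+SCA1+ cells and at most at 0.038 without PDGFRα (adjusted p = 9.2e-05). Epha7, an EphA receptor, was at 17, 15.2 and 9.48 in PDGFRα+SCA1+ cells and at 0.0172, 1.04 and 0.0189 without PDGFRα (-3.50 ± 0.51, adjusted p = 4.4e-04). For both EphA receptors the fractions did not overlap. With the mouse as a block 18 genes were called in place of 21, and the calls of Sema3d (adjusted p = 0.0635), Ephb3 (0.0507) and Ephb6 (0.0508) were lost.

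None of the 42 genes was called between the PDGFRα+ fractions by limma, with a background of 0.435% of all genes called higher and 0.153% called lower in PDGFRα+SCA1+ cells. An unadjusted p under 0.05 was found for 9 of the 42 genes (21.4%) and for 11.7% of all genes. Efnb2 came nearest, with 10.7, 7.9 and 9.34 in PDGFRα+SCA1+ cells and 6.11, 0 and 1.07 in PDGFRα+SCA1- cells (2.06 ± 0.63, adjusted p = 0.206). The difference was 1.03 ± 0.39 for Epha4, 1.21 ± 0.49 for Plxna4 and -1.49 ± 0.54 for Sema3c, none of which passed. Without the PDGFRα+SCA1- sample of mouse A, Efnb2 was called (2.83 ± 0.48, adjusted p = 0.0322), and without that of mouse E, Ephb6 was called (3.09 ± 0.59, adjusted p = 0.0265). The smooth muscle list summed to 1236 to 2769 in PDGFRα+SCA1- and to 129 to 169 in PDGFRα+SCA1+ cells, and its part was not tested.

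Co-receptors and downstream partners of these receptors were followed in a list of 57 genes, of which 53 were tested in the homeostasis experiment. Against DCs, PDGFRα+SCA1+ cells had 9 of these higher and 8 lower, the PDGFRα+SCA1- fraction 8 and 11, and the PDGFRα-SCA1+ fraction 17 and 6. These are 17% and 15.1%, 15.1% and 20.8%, and 32.1% and 11.3% of the 53, against 9.85% and 14%, 9.98% and 18.9%, and 11.5% and 11.3% of all genes. The counts of this list keep any gene that passed the filter on low values through a single fraction, so they are a description only. Nrp1, the neuropilin that joins A plexins in binding class 3 semaphorins, had a mean of 4.75 in DCs. Its mean was 169 in PDGFRα+SCA1+ cells (4.86 ± 0.30, adjusted p = 3.4e-07), 99.9 in PDGFRα+SCA1- cells (4.13 ± 0.30, adjusted p = 1.3e-06) and 507 in PDGFRα-SCA1+ cells (6.42 ± 0.30, adjusted p = 7.0e-08). Nrp2 had means of 101 in that last fraction and 0.635 in DCs (5.95 ± 0.82, adjusted p = 2.0e-04). DCs, in which the secreted Sema3c and Sema3e were high, had the lowest mean of Nrp1. Dpysl3, a collapsin response mediator that acts downstream of semaphorins, had means of 77 and 104 with and without SCA1 in the PDGFRα+ fractions, both called higher than the 4.4 of DCs. The guanine exchange factor Arhgef16 had a mean of 45.4 in DCs and of at most 0.386 in each stromal fraction. It passed the filter through its DC samples, so its calls as lower carry no support. Rnd1, a small GTPase that binds plexins, was lower in PDGFRα+SCA1+ cells (119) than in DCs (730) (-2.63 ± 0.38, adjusted p = 2.6e-04). Ngef, an exchange factor of EphA receptors, was lower in PDGFRα+SCA1+ cells (2.26) than in PDGFRα+SCA1- cells (27.7, -3.19 ± 0.55, adjusted p = 0.0273), and was the only gene of this list called between those fractions. PDGFRα-SCA1+ cells had 15 of these genes higher (28.3%, against 10.9% of all genes) and 5 lower (9.43%, against 7.86%) than PDGFRα+SCA1+ cells, led by Arhgef15 (78.5 against 1.18) and Arhgef19 (1.29 against 18.9).

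In the transwell experiment, fresh SCA1+Msc were first set against fresh DCs. The ductal list summed to 51878 to 53728 in fresh DCs and to 1198 to 2507 in fresh SCA1+Msc, whose mesenchymal sum was 22309 to 23671, and whose endothelial sum of 225 to 237 held all 6 of 6 markers. The hepatocyte list summed to 16168 to 20806 in fresh SCA1+Msc and 4210 to 5292 in fresh DCs, and the erythroid list to 6388 to 8038 and 3890 to 3961, and the part of both in this comparison was not tested. Of 45 genes tested, 17 were higher (background 21.4% of 18136) and 11 lower (background 24.7%) in SCA1+Msc. Epha3 was at 40.9 and 61.3 in the 2 replicates of SCA1+Msc and listed at 0 in those of DCs (adjusted p = 6e-07). Plxna4 was at 51.5 and 48.8 against 0.297 and 0.442 (5.22 ± 0.29, adjusted p = 1e-06), and Sema6d at 90.1 and 81 against 6.1 and 6.21 (3.60 ± 0.31, adjusted p = 1.4e-05). Sema4b was at 9.04 and 14 against 103 and 144 (-3.33 ± 0.27, adjusted p = 8.9e-06), Sema6a at 16.1 and 21.2 against 171 and 177 (-3.16 ± 0.41, adjusted p = 1.9e-04), and Sema3e at 0.665 and 1.42 against 13.7 and 18.2 (-3.07 ± 0.34, adjusted p = 7e-05). These mice and sorts are not those of the homeostasis experiment, and the tables were normalized separately. Epha2 and Efna1 had means of 112 and 87.8 in fresh SCA1+Msc and of 397 and 247 in fresh DCs.

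**Figure D3:**
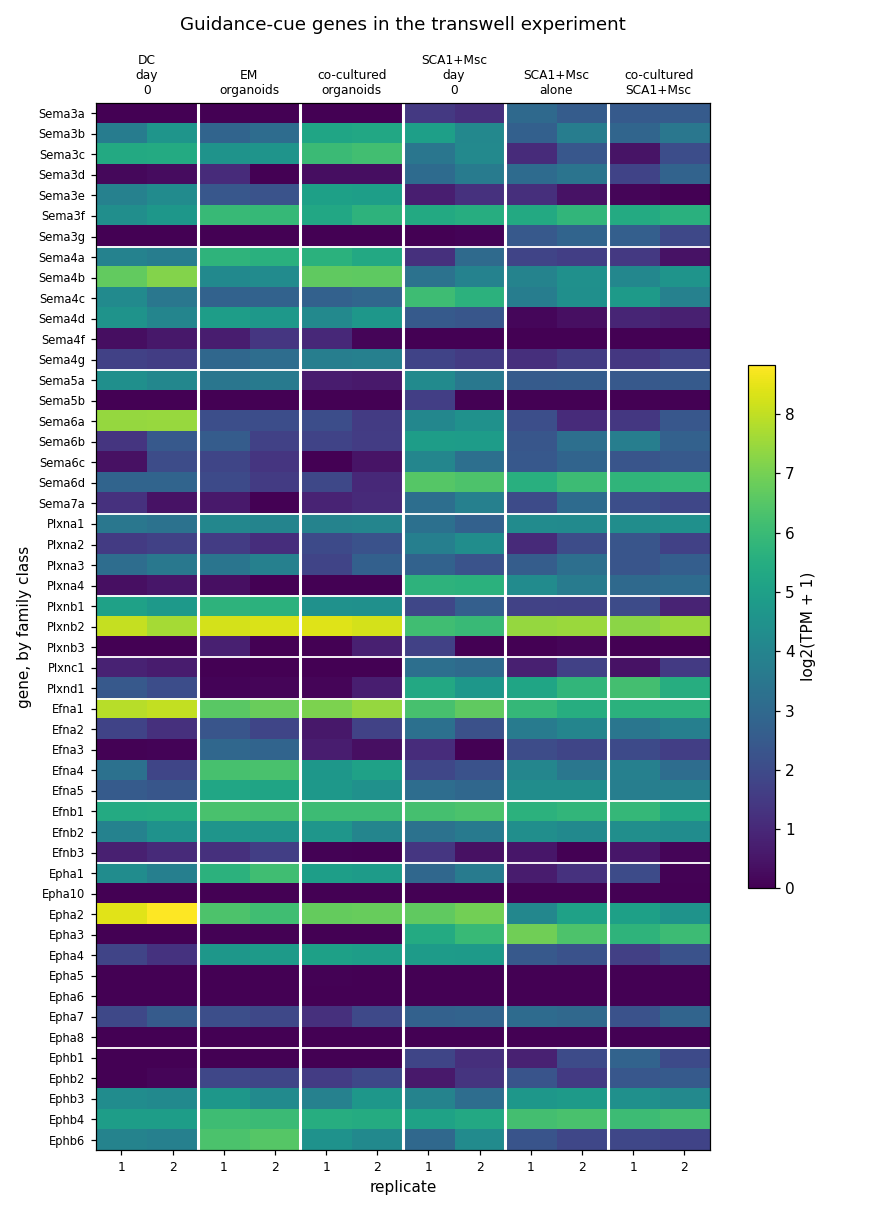
Heat map of the 51 genes (rows, by class) in the 12 samples of the transwell experiment (columns, 2 replicates per group), with color for log2(TPM + 1). Sema6a is brightest in the DC day 0 columns (171 and 177 TPM), and Plxnb2 is bright in all organoid columns (302 to 336 TPM).

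The growth of DCs as EM organoids was accompanied by rises in 14 of 45 genes (background 27.1%) and falls in 8 (background 17.2%), which is near the share of all genes. Of the 18 ephrins and Eph receptors tested 9 rose (50%) and 2 fell (11.1%), a split made after the values were seen. Efna4, an A ephrin, went from 8.87 and 2.6 TPM to 75.5 and 78 (3.71 ± 0.44, adjusted p = 1.3e-04), Epha4 from 2.48 and 1.47 to 24.4 and 27.1 (3.19 ± 0.27, adjusted p = 1.4e-05), and Efna3, also an A ephrin, from 0.0477 and 0.0657 to 6.68 and 6.11 (2.81 ± 0.39, adjusted p = 3.3e-04). Efna5 rose from a mean of 4.52 to 35.4 and Ephb6 from 13.9 to 85, the highest mean of a B Eph receptor in this experiment. Efna1 and its receptor Epha2 fell instead. Epha2 went from 342 and 453 TPM to 81.3 and 68.9 (-2.38 ± 0.29, adjusted p = 1.6e-04) and Efna1 from 233 and 261 to 93.8 and 110 (-1.27 ± 0.19, adjusted p = 5.0e-04). The largest fall was that of Sema6a, from 171 and 177 to 3.37 and 3.21 (-5.35 ± 0.41, adjusted p = 8.4e-06), followed by Sema4b, from 103 and 144 to 17.1 and 18 (-2.73 ± 0.27, adjusted p = 3.7e-05). With quantile normalization, 10 genes rose and 10 fell. The proliferation list summed to 10.8 to 11 TPM in fresh DCs and 72.1 to 86 in EM organoids, and the endothelial list to 26.7 to 27.4 and to at most 0.0225. The hepatocyte list summed to 4210 to 5292 TPM in fresh DCs, 1348 to 1415 in EM organoids and 154 to 349 in co-cultured organoids, and the erythroid list to 3890 to 3961, at most 1.37 and at most 0.0552. Their part in these changes was not tested.

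Organoids grown with SCA1+Msc were set against the same fresh DCs, and 10 of 45 genes were higher (background 23.2%) and 8 lower (background 19.1%). Epha4 reached 31.4 and 29 TPM (3.41 ± 0.27, adjusted p = 1e-05), Efna4 24.3 and 32 (2.28 ± 0.44, adjusted p = 0.0026), and Sema4g, a class 4 semaphorin, 12.8 and 13.5, up from 2.29 and 2.03 (2.16 ± 0.28, adjusted p = 2.2e-04). Sema6a fell to 3.28 and 1.92 TPM (-5.62 ± 0.41, adjusted p = 6.7e-06), Epha2 to 107 and 108 (-1.86 ± 0.29, adjusted p = 7.7e-04), and Sema5a, a semaphorin with thrombospondin repeats, from 20.2 and 16.1 to 0.61 and 0.515 (-3.61 ± 0.28, adjusted p = 9.9e-06). Plxnd1 fell from 4.57 and 3.2 to 0.0765 and 0.69 (-1.84 ± 0.37, adjusted p = 0.00327), beside an endothelial list that went from 26.7 to 27.4 TPM to at most 0.0179, with 5 of 6 markers at 0 in both replicates. Without replicate 1 of the co-cultured organoids, 11 genes were called in place of 18, with 6 higher and 5 lower. When only the groups compared were fitted, Efna4 lost its call (adjusted p = 0.0793). From the RPKM as deposited 13 genes were higher and 6 lower.

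The organoids of the 2 cultures differed from each other in 9 of 45 genes, with 3 higher (background 5.73%) and 6 lower (background 7.21%) in co-culture. The 3 higher genes are all semaphorins and make up 6.67% of those tested, near the share of all genes. Class 3 semaphorins summed to 170 to 190 TPM in co-cultured and 94.4 to 95 in EM organoids. Within that sum Sema3c, which was not called, had means of 66.9 and 22.6 TPM. Sema3f, also not called, went the other way, with means of 44.8 and 60.6. Sema3e was at 31.5 and 30.1 TPM in co-cultured and at 4.26 and 3.74 in EM organoids (2.67 ± 0.34, adjusted p = 0.001), with fresh DCs in between at 13.7 and 18.2. Sema4b was at 100 and 99.2 against 17.1 and 18 (2.44 ± 0.27, adjusted p = 4.1e-04), so that the co-cultured organoids stood close to the 103 of 1 fresh DC sample. Sema3b was at 35.5 and 38.2 against 6.1 and 7.8 (2.26 ± 0.44, adjusted p = 0.00917). Sema5a was at 0.61 and 0.515 against 10.1 and 11.4 (-2.91 ± 0.28, adjusted p = 2.0e-04), Efna3 at 0.643 and 0.272 against 6.68 and 6.11 (-2.35 ± 0.39, adjusted p = 0.0041), and Ephb6 at 21.7 and 17.3 against 80 and 89.9 (-2.07 ± 0.37, adjusted p = 0.00596). The other genes lower in co-culture were Ephb4 (means of 43.2 and 65.5 TPM), Plxna3 (4 and 11.6) and Efnb3 (0.0176 and 1.72).

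This comparison rested on few samples. The count was 5 in place of 9 without either replicate of the EM organoids and without replicate 1 of the co-cultured organoids, and 12 at the most with another sample left out. Sema3b lost its call without replicate 1 of the EM organoids (2.10, adjusted p = 0.0672) and without replicate 1 (2.31, adjusted p = 0.0557) or 2 (2.21, adjusted p = 0.0591) of the co-cultured organoids, and Ephb6 without replicate 2 of the EM organoids (-1.99, adjusted p = 0.0513). Efna3 lost its call with a pseudocount of 0.1 (-3.62, adjusted p = 0.0617). With quantile normalization 3 genes were higher and 3 lower, and with RPKM as deposited 6 and 7. The proliferation sum was 68.1 to 87.5 TPM in co-cultured organoids. The mesothelial list summed to 3879 to 4502 TPM there and to 297 to 326 in EM organoids, nearly all of it Msln, while Wt1 was at 0 in co-cultured organoids, and its part was not tested.

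**Figure D4:**
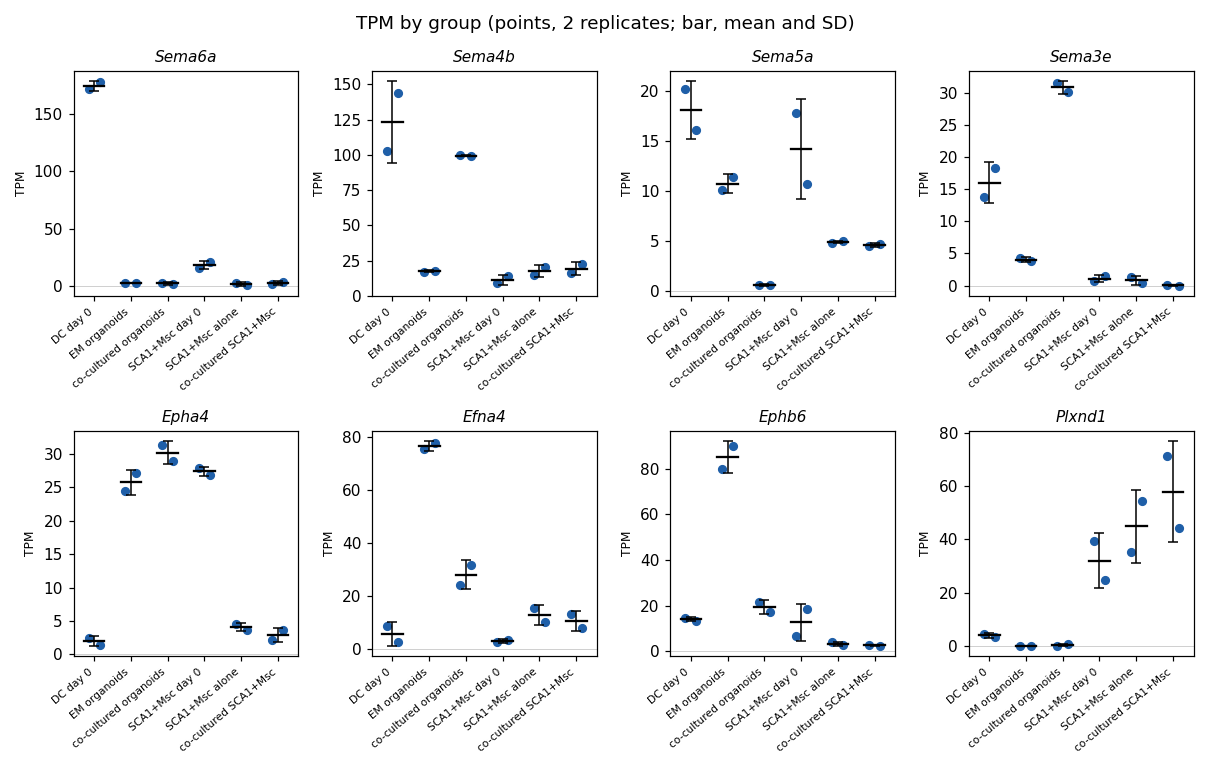
TPM (linear axis) of 8 genes in the 6 groups of the transwell experiment, with a point per replicate, a bar at the mean of 2 and whiskers of 1 SD. Sema4b and Sema3e are high in co-cultured and low in EM organoids (99.7 against 17.5 and 30.8 against 4 TPM on average), Ephb6 and Efna4 are highest in EM organoids, and Epha4 is high in organoids and in fresh SCA1+Msc.

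SCA1+Msc were then followed from day 0 to day 15. After culture alone 11 of 45 genes had risen (background 27.4%) and 16 had fallen (background 17.5%), and their median was -0.30 against 0.19 over all genes. Sema3g, a secreted semaphorin, rose from 0 and 0.0735 TPM to 4.48 and 6.22 (2.60 ± 0.32, adjusted p = 1.8e-04), Efna4 from 2.64 and 3.65 to 15.5 and 10.4 (1.74 ± 0.44, adjusted p = 0.0104), and Sema3a, the semaphorin known for repelling axons, from 1.75 and 1.3 to 7.07 and 4.9 (1.46 ± 0.29, adjusted p = 0.0026). Plxnb2 rose from a mean of 65.8 to 174 TPM and became the highest of the set. Sema6a fell from 16.1 and 21.2 to 3.3 and 1.11 (-2.70 ± 0.41, adjusted p = 6.0e-04), Plxna2, an A plexin, from 13.1 and 19 to 1.06 and 3.1 (-2.53 ± 0.40, adjusted p = 7.4e-04), and Epha4 from 27.9 and 26.9 to 4.56 and 3.68 (-2.48 ± 0.27, adjusted p = 7.4e-05). Epha3 was at 119 and 80.4 after culture alone. Marker lists of other cell types moved over the same time. The ductal list went from 1198 to 2507 TPM to 211 to 236, the hepatocyte list from 16168 to 20806 to 2.2 to 12.7, the erythroid list from 6388 to 8038 to 1.36 to 1.81, and the endothelial list from 225 to 237 to 101 to 171, where Stab2 was at 0. The proliferation list went from 3.13 to 6.17 TPM to 35.5 to 38.3. Their part in these changes, among them the falls of Epha2 and Efna1, was not tested.

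After co-culture 10 genes had risen (background 26%) and 18 had fallen (background 17.3%) against the same fresh samples. Epha4 was at 2.22 and 3.7 TPM (-2.87 ± 0.27, adjusted p = 3.1e-05), Plxna4 fell from 51.5 and 48.8 to 7.09 and 7.44 (-2.63 ± 0.29, adjusted p = 9.5e-05), and Sema3c from 10.1 and 16.9 to 0.376 and 3.28 (-2.54 ± 0.54, adjusted p = 0.00416). Sema3g was at 5.36 and 2.78 (2.24 ± 0.32, adjusted p = 4.4e-04). Ephb2, an EphB receptor, rose from 0.528 and 1.48 to 4.26 and 4.7 (1.49 ± 0.37, adjusted p = 0.00938), and Efna4 reached 13.2 and 7.88 (1.45 ± 0.44, adjusted p = 0.0249). The last 2 depended on single samples. Without replicate 1 of the fresh SCA1+Msc the p of Ephb2 was 0.0519 and that of Efna4 0.099, without replicate 1 of the co-cultured SCA1+Msc that of Efna4 was 0.151, and after culture alone that of Efna4 was 0.0721 without replicate 1 of that group. When only the compared groups were fitted, 8 genes were called in place of 27 after culture alone and 8 in place of 28 after co-culture. Calls over all genes fell too in that fit. After culture alone 2476 were higher and 1823 lower, in place of 4962 and 3165. After co-culture 2283 were higher and 1752 lower, in place of 4724 and 3134. Sema6a (adjusted p = 0.0534), Plxna2 (0.0621), Sema3a (0.0789) and Efna4 lost their calls after culture alone in that fit, as did Sema3c (0.119), Ephb2 (0.0844) and Efna4 after co-culture.

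None of the 45 genes was called between co-cultured SCA1+Msc and SCA1+Msc cultured alone by limma (background 0.0937% higher and 0.0331% lower). An unadjusted p under 0.05 was found for 3 of the 45 genes (6.67%), which is near the 6.96% of all genes. These were Plxna4 (-0.92 ± 0.29, adjusted p = 0.504), Epha3 (-0.74 ± 0.29, adjusted p = 0.654) and Efna5 (-0.52 ± 0.19, adjusted p = 0.598). Plxna4 was at 7.09 and 7.44 TPM in co-culture and at 18.2 and 11.7 alone, and Epha3 at 52.3 and 65.3 against 119 and 80.4. With 2 samples per group and genes picked by their p, the lack of overlap in both carries no support. Plxnb2, the highest gene of both groups, was at 157 and 178 against 170 and 178.

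The culture changes of both partners of the co-culture were then contrasted, as the change of DCs (co-cultured organoids minus day 0) minus the change of SCA1+Msc (co-cultured minus day 0). Of 45 genes tested 14 had the higher change in the ductal cells (background 13.8%) and 5 the lower (background 14.5%). Epha4 had the largest contrast. It rose from 2.48 and 1.47 to 31.4 and 29 TPM in the ductal cells and fell from 27.9 and 26.9 to 2.22 and 3.7 in SCA1+Msc, so that the order of the partners turned (contrast 6.28 ± 0.38, adjusted p = 8.1e-06). Efnb1 was the only other gene called in opposite directions in the partners, from 40.9 and 41.8 to 64.7 and 65 TPM in ductal cells and from 73.5 and 80 to 58.1 and 39.3 in SCA1+Msc (contrast 1.31 ± 0.25, adjusted p = 0.00417). Sema6a fell in both, more in the ductal cells (-3.25 ± 0.58, adjusted p = 0.00314), and so did Sema5a (-2.19 ± 0.40, adjusted p = 0.0033). Plxnb2 rose in both, more in SCA1+Msc (-0.86 ± 0.20, adjusted p = 0.011), and Efna5 rose in both, more in the ductal cells (1.35 ± 0.27, adjusted p = 0.00533). Epha4 was also at 24.4 and 27.1 TPM in EM organoids and at 4.56 and 3.68 in SCA1+Msc cultured alone. Efnb1 was at 76.8 and 73.5 and at 49.4 and 55.4 there. Neither pattern was thus particular to co-culture, and no such contrast was run without the partner. The hepatocyte list fell to at most 349 TPM in ductal cells and from 16168 to 20806 to at most 369 in SCA1+Msc. Its part, and that of the longer culture of SCA1+Msc, was not tested. The values of the remaining genes of this contrast are given further on.

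**Figure D5:**
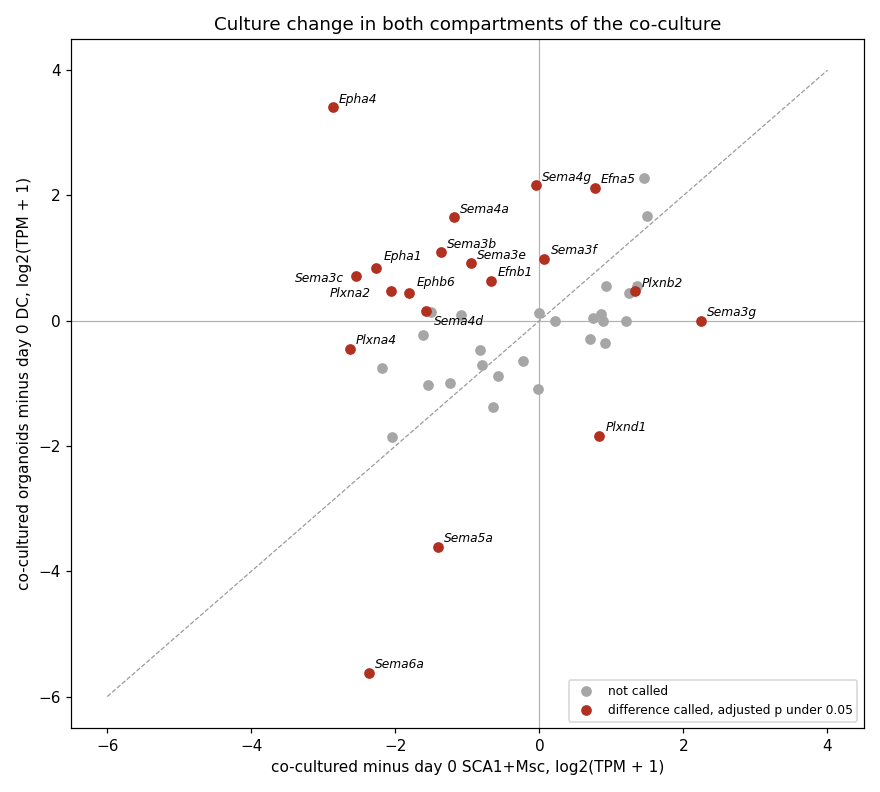
Change of 45 genes from day 0 to co-culture in SCA1+Msc (x axis) and in ductal cells (y axis), both as differences of mean log2(TPM + 1) over 2 replicates, with the 19 genes whose contrast was called in red and the line of equal change dashed. Epha4 lies at -2.87 and 3.41, the farthest from the line, and Sema6a at -2.37 and -5.62.

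Of the 57 partner genes 56 were tested in the transwell experiment. Here too, any gene that passed the filter through a single group was kept in the counts. Fresh SCA1+Msc had 15 higher (26.8%, against 21.4% of all genes) and 14 lower (25%, against 24.7%) than fresh DCs, with Nrp1 at means of 106 and 4.96 TPM (4.15 ± 0.19, adjusted p = 2.9e-07), Dpysl3 at 54.1 and 3, Arhgef16 at 1.26 and 50.6 and Src, a kinase recruited by Eph receptors, at 18 and 129. In EM organoids 14 had risen (25%, against 27.1% of all genes) and 15 had fallen (26.8%, against 17.2%) since day 0, with the largest rise in the Rac regulator Chn2, from a mean of 0.546 to 20.2 TPM (3.81 ± 0.44, adjusted p = 1.0e-04), and the largest fall in Rnd1, from 558 to 11.7 (-5.44 ± 0.28, adjusted p = 8.8e-07). In co-cultured organoids 11 had risen (19.6%, against 23.2%), again led by Chn2 (to 21.4 TPM), and 12 had fallen (21.4%, against 19.1%), led by Rnd1 (to 15.9 TPM). Between the organoids, 7 were higher (12.5%, against 5.73%) and 4 lower (7.14%, against 7.21%) in co-culture, and Nrp1 was among the latter (4.51 against 10.5 TPM, -1.07 ± 0.19, adjusted p = 0.0054). In SCA1+Msc 21 had risen (37.5%, against 27.4%) and 10 had fallen (17.9%, against 17.5%) after culture alone, and 19 (33.9%, against 26%) and 12 (21.4%, against 17.3%) after co-culture. Itga1, an integrin subunit in the receptor of Sema7a, rose from 51.5 to 362 TPM alone and to 245 in co-culture, while Rnd1 fell from 246 to 11.3 and 32.8 and Nrp2 from 12.4 to 1.56 and 1.74. None of the 56 was called between the cultured SCA1+Msc by limma. In the contrast of the culture changes 6 were higher (10.7%, against 13.8%) and 13 lower (23.2%, against 14.5%) in the ductal cells, with Chn2 the highest (7.18 ± 0.62, adjusted p = 6.0e-05) and Fyn, another Src-family kinase, the lowest (-3.04).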

How the data were processed

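RNA-seq values of the homeostasis (12 samples) and transwell experiment (12 samples) were used. Per the labels and the methods, the authors made Smart-seq2 libraries, read in single-read mode, aligned them to GRCm38 with STAR 2.5.0a and counted reads on exons with featureCounts 1.6.0. The authors deposited RPKM of the transwell samples, which were divided by the sum of each sample to give TPM. Deposited homeostasis values are named TPM, but each RPKM was divided by a total taken from all samples in a cycle of 12 down the table. They were used as deposited, and 4 columns of fraction means were not used. No column was left unmapped.

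Depth was recovered from low values with GENCODE M21 exon lengths, for which 92.9% of 47016 and 93.0% of 50556 low values (up to 20 reads) were whole reads within 0.02. A floor of 3 reads covers counting error only.

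Genes that reached 1 in 3 (homeostasis) or 2 (transwell) samples or more were fitted as log2(value + 1) with limma 3.58.1 in R 4.3.3, with group means estimated from all 12 samples together, eBayes with trend and two-sided tests, and p-values were adjusted by Benjamini-Hochberg over all genes. The script was tested on simulated data. Samples of 1 mouse share its letter, so fits with the mouse as a block were made, and residual correlations between fractions of a mouse were 0.010 to 0.097. Per the paper, the transwell groups had 2 independent biological replicates, with cultured SCA1+Msc from 2 littermates and cultured DCs from 2 others. The labels do not say that replicates came from separate cultures, so p-values there measure the spread between these samples. Python 3.11.15 with pandas 2.3.3, numpy 2.4.6 and matplotlib was used beside R.

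The genes, lists and tests were chosen with earlier results of these data known. Named are, per comparison, up to 3 called genes with the largest rise and fall and no overlap of groups, the gene with the highest group mean of each class, the genes called in the contrast of culture changes and, of the partner list, called genes with the 2 largest rises or falls. Further genes were named after their values were seen. Alternatives were a pseudocount of 0.1, no filter, a minimum of 5, quantile normalization, eBayes without trend, the compared groups alone, a replicate block, TPM with the reuse of totals undone, RPKM as deposited and each sample left out.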

Additional observations from a re-analysis of the deposited data

Results flagged for a closer look

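A difference between the partners of the co-culture, tested as the change of DCs minus the change of SCA1+Msc in the limma fit, was found for 19 of 45 genes, and those not yet described follow as values on the log2(TPM + 1) scale with adjusted p. Epha4 and Efnb1 moved in the same directions in culture without the partner, as given above. The contrast was 6.28 for Epha4, 1.31 for Efnb1, 1.35 for Efna5, -3.25 for Sema6a, -2.19 for Sema5a and -0.86 for Plxnb2, as described above, and each of these was also called under all 20 alternatives.

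Among the semaphorins, Sema3c went from 40.2 and 40.9 to 63.8 and 70 TPM in ductal cells, a change that did not pass by itself (adjusted p = 0.339), and fell in SCA1+Msc, with a contrast of 3.25 ± 0.77 (0.0121). Sema3b had a contrast of 2.46 ± 0.63 (0.0169), with 12 and 23.2 to 35.5 and 38.2 TPM in ductal cells and 30.9 and 16.4 to 6.38 and 10.3 in SCA1+Msc. Sema3e had one of 1.87 ± 0.48 (0.0185) and was at 0.665 and 1.42 TPM in fresh and 0.085 and 0 in co-cultured SCA1+Msc. Sema4a had one of 2.84 ± 0.76 (0.0213), with 13.9 and 12.5 to 48.7 and 38.7 TPM in ductal cells and 1.32 and 7.28 to 1.78 and 0.333 in SCA1+Msc. Sema4d, the ligand of Plxnb1, had one of 1.72 ± 0.41 (0.0127), with 22.2 and 15 to 16.8 and 24.6 TPM in ductal cells and 4.66 and 4.09 to 0.882 and 0.73 in SCA1+Msc. Sema4g, with a contrast of 2.22 ± 0.39 (0.00299), rose in ductal cells and was at 2.4 and 1.92 in fresh and 1.72 and 2.39 TPM in co-cultured SCA1+Msc. Sema3f had the smallest of the positive contrasts, 0.92 ± 0.29 (0.0432), and rose from 19.5 and 24.7 to 38.4 and 51.3 TPM in ductal cells against 40.1 and 44.1 to 41.4 and 47.1. Sema3g was listed at 0 in all ductal samples, with a contrast of -2.24 ± 0.46 (0.00606).

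Among the receptors, Plxna2 had a contrast of 2.53 ± 0.57 (0.00949), with 1.91 and 2.26 to 2.92 and 3.68 TPM in ductal cells and 13.1 and 19 to 3.97 and 2.28 in SCA1+Msc. Plxna4 had one of 2.18 ± 0.42 (0.00429), but it is at most 0.442 TPM in DCs, and with a pseudocount of 0.1 the contrast was 0.56 (0.684). Plxnd1 had one of -2.67 ± 0.53 (0.00512), with 39.4 and 24.6 to 71.3 and 44.4 TPM in SCA1+Msc, a change that did not pass by itself (adjusted p = 0.103). Ephb6 had one of 2.26 ± 0.53 (0.0115), with 14.6 and 13.3 to 21.7 and 17.3 TPM in ductal cells and 6.89 and 18.3 to 2.68 and 2.39 in SCA1+Msc. Epha1, with a contrast of 3.10 ± 0.79 (0.0173), was at 18.8 and 12.9 in fresh and 29.8 and 27.7 TPM in co-cultured ductal cells and at 6.74 and 11.6 and then 3.06 and 0.0353 in SCA1+Msc. Several of these calls rested on single samples. Without 1 sample of fresh DCs the adjusted p reached 0.132 for Sema3f (replicate 1), 0.0628 for Sema3b and 0.0636 for Sema3e (replicate 1) and 0.0627 for Epha1 (replicate 2), and Sema4a lost its call without either. Without 1 sample of co-cultured organoids it reached 0.144 for Sema3f, 0.0552 for Sema4d and 0.0529 for Sema3b (replicate 2), 0.0714 for Sema4a and 0.0548 for Epha1 (replicate 1) and 0.0611 for Sema3e (either). Without 1 sample of co-cultured SCA1+Msc it reached 0.121 for Sema3f (either), 0.0607 for Sema3b (replicate 1), and 0.0729 for Sema4a and 0.0519 for Sema3e (replicate 2). Sema3f was called in only 9 of 20 alternatives. With a pseudocount of 0.1 Epha1 (4.65, 0.0729) and Sema4a (3.56, 0.0506) were not called, and when only the compared groups were fitted Sema4a was not.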

How the results depend on the processing

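Of the counts of called genes, 101 of 104 under another setting and 150 of 156 with a sample left out stayed within 1.5 times the count reported. When only the groups compared were fitted, PDGFRα+SCA1+ cells against DCs gave 27 calls, SCA1+Msc alone against day 0 gave 8 and co-cultured SCA1+Msc against day 0 gave 8. The calls over all genes moved in the same directions, as given above. With each sample left out in turn, PDGFRα+SCA1+ against PDGFRα+SCA1- cells gave 0 to 1 calls, co-cultured organoids against DCs 11 to 21 and co-cultured against EM organoids 5 to 12. For the named genes no change of sign was found in any alternative, and 16 of 630 values under another setting and 30 of 942 with a sample left out were no longer past the threshold.

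With the mouse as a replicate block, calls went from 17 to 17, 20 to 19, 27 to 26, 21 to 18 and 0 to 0 in the homeostasis comparisons, in the order reported. Replicate numbers of the transwell groups share only a number (residual correlations of 0.004 to 0.030), and with that number as a block between 0 and 28 genes were called per comparison, always within 1.5 times. Quantile normalization moved the median of all genes by 0.34 for PDGFRα+SCA1- cells against DCs, by 0.18 for PDGFRα+SCA1+ cells against DCs and by -0.20 between the SCA1+ fractions. With it 10 genes were higher and 10 lower in PDGFRα+SCA1- cells than in DCs. Undoing the reuse of totals moved the median of all genes by 0.18, 0.16 and -0.09 in the same comparisons, in the same order. The 2 replicates per transwell group and 3 mice limit what could be called, and a value under 3 reads is not told apart from absence.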
